A study of Saccharomyces cerevisiae with 12 samples.

Results

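This comparison covers the early change in mRNA abundance of budding yeast exposed to Congo Red, with cells sampled at 60 min set against cells sampled at 0 min. It rests on 2 of the 12 samples of the series, which are the oligo-dT-primed cDNA samples of these times. Each sample held 3 replicate arrays, so 6 of the 36 arrays were compared, paired by the replicate number in their file names. Both groups were wild type BY4741 grown at 24 °C in rich glucose medium (YEPD). A growth time of 2.5 h in YEPD was listed for both. The 60 min group had spent 60 min with 30 µg/ml of Congo Red, a dose the labels call sublethal, and the 0 min group was the starting sample of the same time course. The series holds no culture kept without the dye for 60 min, so the dye and the time in culture cannot be told apart here. Whether the replicates came from separate cultures is not in the labels, and the p-values therefore reflect array-to-array spread, which may be technical. In fits with the replicate number as a block, it is the spread left after differences between replicate numbers are taken out. Per the series' design text the cell volume factor was 1 at both times.

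Congo Red binds chitin and hinders its assembly in the yeast cell wall. Yeast senses such damage through sensor proteins of the plasma membrane that signal through protein kinase C and a cascade of MAP kinases, the cell wall integrity pathway. Its output includes the transcription of genes for cell wall proteins and for enzymes that make glucan and chitin. An mRNA level is set by synthesis and by decay, and for this reason the nascent transcription measured on other arrays at the same times is given beside the mRNA.

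No deposited file links a spot to a gene. The identifiers give the place of a spot on the array, and 0 of them matched a gene of the reference table. The transcripts are therefore described as groups of spots, by the size of the change, the level, the time course and the nascent signal. At most 2 spots that rose and 2 that fell are named by their place, and whether the changed spots hold cell wall genes was not analysed here.

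The 6 arrays had 6144 spots each. Total intensity was 544125, 1298254 and 1103538 at 60 min in replicates 1 to 3, against 521650, 963618 and 1008460 at 0 min. Each 60 min array was brighter in total than the 0 min array of its number, by 1.04, 1.35 and 1.09 times, which gave a mean log2 ratio of 0.21 ± 0.20 (SD, n = 3 pairs). A paired exact permutation test, two-sided, gave p = 0.25, the smallest that 3 pairs allow. The share of spots listed at 0 was 16.1% to 18.2% per array, and the 61 brightest spots held 21.3% to 30.6% of an array's total intensity. Arrays of the same number correlated at 0.943 to 0.953 between 60 and 0 min (log2, across spots). Arrays of different numbers correlated at 0.839 to 0.888 between these times and at 0.846 to 0.914 within a time. A 60 min array was thus closer to the 0 min array of its number than to the other 60 min arrays.

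At 60 min a small group of transcripts was higher than at 0 min and a smaller one was lower. Of 4976 spots tested, 75 rose and 21 fell (limma with the replicate number as a block, Benjamini-Hochberg adjusted p under 0.05), which is 1.51% and 0.422% of the spots tested. The median change of the 75 rises was 1.07 on the log2 scale, or 2.09-fold. The 21 falls had a median log2 change of -0.88. Before adjustment 729 spots had a p below 0.05, where 249 would by chance. All changes are relative to the typical spot, because the normalisation removes a shift common to all spots, and a change per cell cannot be told apart from a change in cell number.

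**Figure D1:**
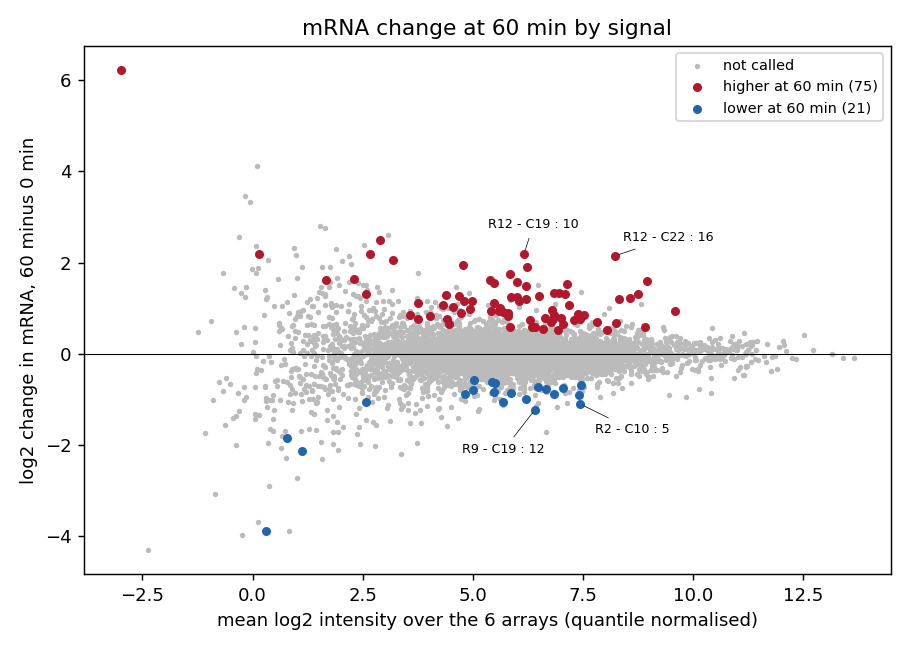
Log2 change in mRNA, 60 minus 0 min, of each of the 4976 spots tested (vertical axis), against its mean log2 intensity over the 6 arrays after quantile normalisation (horizontal axis). The 75 spots that rose are red, the 21 that fell are blue, the others are grey, and the 4 named spots are labelled. The scatter of the grey points narrows as the signal increases.

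These counts changed with the pairing and with the arrays that entered the normalisation and the fit. Without the replicate block 5 spots rose and 0 fell (limma, adjusted p under 0.05), which is 0.100% of the spots tested, with 252 at an unadjusted p below 0.05, and the median residual SD was 0.446 against 0.251 with the block (log2). When the 6 arrays were normalised and fitted alone, with the block, 0 spots passed, while 561 had an unadjusted p below 0.05 (limma). Leaving out the 60 min array of replicate 1, 2 or 3 turned the 96 calls into 57, 43 or 17. Leaving out the 0 min array of replicate 1, 2 or 3 turned them into 45, 25 or 110.

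The rises were mostly moderate in size. Of the 75, 35 lay between 0.52 and 0.98 on the log2 scale, 33 between 1.02 and 1.95, and 7 at or above 2, which is 4-fold. The 7 largest rises had a median at percentile 11.5 of signal, although R12 - C19 : 10 and R12 - C22 : 16, described below, lay at percentiles 61.3 and 89.7, and 4 of the 7 lacked a value on at least 1 of the 6 arrays. The largest, with a log2 change of 6.23, rested on 1 complete pair of arrays and its size is poorly known. The 35 smallest rises sat at a median percentile of 69.4, and all had a value on all 6 arrays. Among the falls 14 lay under 2-fold, 5 between 2-fold and 4-fold, and 2 beyond 4-fold, and these last 2 had a median percentile of 2.01.

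The calls were spread over the range of signal. From the dimmest to the brightest quintile of the spots tested, 11, 12, 15, 23 and 14 spots rose and 4, 3, 5, 6 and 3 fell. The half-width of the 95% confidence interval of the change had a median of 1.02 (log2) in the dimmest quintile, which is 2.02-fold, and of 0.48, 0.40, 0.37 and 0.38 in the others, in order of signal. A change of less than 2-fold was therefore within the error of a typical spot of the dimmest quintile, and a change of 1.3-fold within that of the brightest.

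Replicate pairs shared the direction of change at the called spots. A value on all 6 arrays was present for 70 of the 75 rises, and all 70 were higher at 60 min in all 3 pairs. All 21 falls were lower in all 3 pairs. Among the 4728 spots with 6 values 19.7% were higher in all 3 pairs and 17.1% were lower. For 61 of the 70 rises the 3 arrays at 60 min lay above all 3 arrays at 0 min, a separation found at 5.33% of the 4728 spots. For 16 of the 21 falls all arrays at 60 min lay below all arrays at 0 min, against 3.53% of the 4728. Since the same arrays made the calls, these counts describe the called spots and do not test them.

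**Figure D2:**
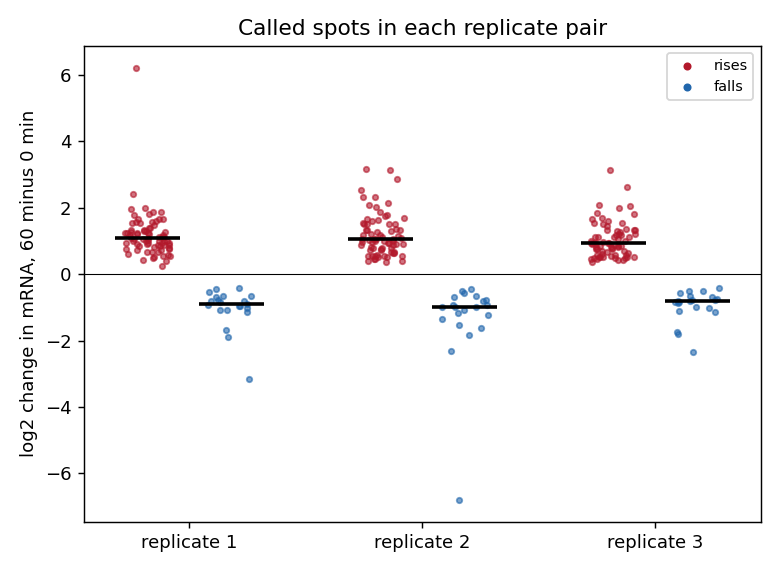
Log2 change in mRNA, 60 minus 0 min, within each replicate pair (horizontal axis) for the spots that rose (red, left of each pair) and fell (blue, right). Points are spots and black bars are medians, which were 1.10, 1.05 and 0.93 for the rises and -0.89, -0.99 and -0.80 for the falls in pairs 1, 2 and 3.

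Across all spots the pairs shared little of their change. The change in pair 1 correlated with that in pair 2 at r = 0.17 and with that in pair 3 at r = -0.05, and pairs 2 and 3 correlated at r = 0.32, each across spots and with no array in common. In the fourth quintile by signal, which held 23 of the rises, these values were 0.32, 0.02 and 0.60. In the dimmest quintile they were 0.11, -0.08 and 0.19. The pairs thus differed in how far they followed each other, and pairs 2 and 3 were the closest in all 5 quintiles. The fitted changes of 9 in 10 spots lay between -0.70 and 0.70 (log2), and the median half-width of their 95% confidence intervals was 0.44.

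Spot R12 - C19 : 10 had the largest rise under the naming rule, which asked for 6 values above 0, the same direction in all 3 pairs and at least the median signal. Its deposited intensities were 85.7, 281 and 199 at 60 min in replicates 1 to 3, against 18.7, 34.2 and 37.0 at 0 min. After normalisation its log2 intensity averaged 7.26 ± 0.19 at 60 min, against 5.06 ± 0.30 at 0 min (SD, n = 3 each). The arrays of the groups did not overlap, and the log2 change was 2.20 ± 0.16 (SE), or 4.60-fold (limma adjusted p = 3.19e-05). It was called in 21 of the 22 alternative fits, with changes of 2.04 to 2.34 and limma adjusted p of 2.62e-06 to 0.299. The fit to the 6 arrays alone was the exception (limma adjusted p = 0.299).

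This spot was already higher at 30 min, by 1.33 on the log2 scale (limma adjusted p = 0.0044), and stood 2.42, 2.56 and 2.21 above 0 min at 120, 180 and 240 min. R12 - C19 : 10 had a nascent signal 1.15 ± 0.38 (SE) above 0 min at 60 min (limma adjusted p = 0.793), and within replicates 1 to 3 the nascent difference was 1.96, 1.11 and 0.39. In the authors' deposited table its mRNA abundance was 3.98 at 60 min and 0.816 at 0 min, a ratio of 4.88.

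Spot R12 - C22 : 16 was a bright spot, at percentile 89.7 of signal. Its intensities were 260, 1258 and 960 at 60 min, against 74.3, 121 and 264 at 0 min. After normalisation its log2 intensity averaged 9.31 ± 0.43 at 60 min, against 7.16 ± 0.72 at 0 min (SD, n = 3 each). All 60 min arrays lay above all 0 min arrays, but the pairs differed in size, with changes of 1.80, 3.15 and 1.51. The log2 change was 2.15 ± 0.40 (SE), or 4.44-fold (limma adjusted p = 0.0222). It missed the threshold without replicate 2 or 3 at 60 min (limma adjusted p = 0.0928 and 0.109) and without replicate 1 or 2 at 0 min (limma adjusted p = 0.0863 and 0.108). Its adjusted p ran from 0.00636 to 0.505 over 22 alternatives, 13 of which called it, and without the replicate block it was 0.0565 (limma).

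The nascent signal of R12 - C22 : 16 differed from 0 min by -0.35 ± 0.98 (SE) at 60 min (limma adjusted p = 0.999), with differences of -0.57, 0.32 and -0.79 in replicates 1 to 3. The difference between its mRNA and nascent changes was 2.50 ± 1.09 (SE) and did not pass (limma adjusted p = 1). In the authors' deposited table its mRNA abundance was 15.0 at 60 min and 3.60 at 0 min. The table's synthesis rate for it was 0.0813 at 60 min and 0.0997 at 0 min.

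Spot R9 - C19 : 12 had the largest fall under the naming rule. Its intensities were 32.0, 109 and 64.6 at 60 min, against 55.4, 238 and 118 at 0 min. After normalisation its log2 intensity averaged 5.79 ± 0.18 at 60 min, against 7.02 ± 0.44 at 0 min (SD, n = 3 each), with no overlap of the arrays. The log2 change was -1.23 ± 0.24 (SE) (limma adjusted p = 0.0249), and it lay between -1.36 and -1.05 over 22 alternatives, of which 12 called it (limma adjusted p of 0.0102 to 0.351). The call was lost without any 1 array at 60 min (limma adjusted p = 0.0587, 0.106 and 0.125) and without replicate 1 or 2 at 0 min (limma adjusted p = 0.0842 and 0.126). The fit without the replicate block gave 0.284 (limma adjusted p). Its nascent signal differed from 0 min by -0.82 ± 0.27 (SE) (limma adjusted p = 0.793), below 0 in all 3 replicates.

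Spot R2 - C10 : 5 had intensities of 51.8, 287 and 147 at 60 min, against 87.6, 540 and 240 at 0 min. After normalisation its log2 intensity averaged 6.89 ± 0.53 at 60 min, against 7.99 ± 0.82 at 0 min (SD, n = 3 each). The groups overlapped, since replicate 2 at 60 min (7.35) lay above replicate 1 at 0 min (7.28), and only the pairing set them apart. The log2 change was -1.10 ± 0.25 (SE) (limma adjusted p = 0.0447), with pair changes of -0.97, -1.54 and -0.80. The fit without the replicate block gave an adjusted p of 0.999 (limma), and 11 of 22 alternatives called it (limma adjusted p of 0.0156 to 0.999). It was lost without any 1 array at 60 min (limma adjusted p = 0.0629, 0.179 and 0.175) and without replicate 1 or 2 at 0 min (limma adjusted p = 0.141 and 0.182). Its nascent difference was -0.54 ± 0.28 (SE) (limma adjusted p = 0.999).

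**Figure D3:**
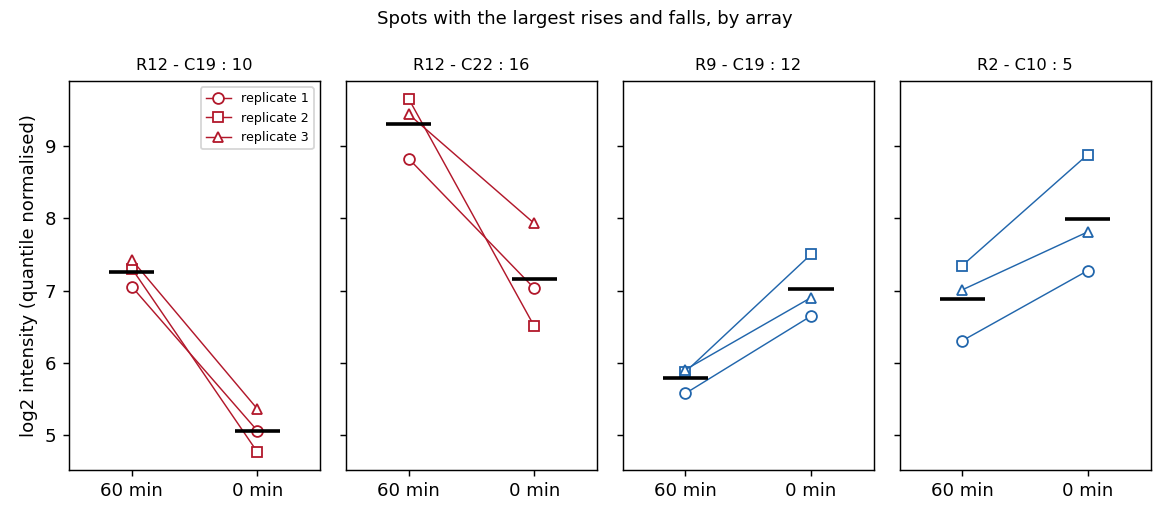
Quantile-normalised log2 intensity (vertical axis) of the 4 named spots on the 3 arrays at 60 min (left of each panel) and the 3 at 0 min (right). Lines join arrays of the same replicate number and black bars are the means. The arrays of the 2 times are separate in the first 3 panels and overlap for R2 - C10 : 5, where all 3 lines run the same way.

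The change at 60 min was set against that at 30 min to ask when it arose. No spot passed between 30 and 60 min (0 of 4976, limma with the block, adjusted p under 0.05), and 207 had an unadjusted p below 0.05, where 249 would by chance. Without replicate 1 at 30 min 1 spot passed. The step from 30 to 60 min therefore could not be resolved for a single spot. Between 0 and 30 min 12 spots rose, or 0.241% of those tested, and 0 fell (limma, adjusted p under 0.05), with 422 at an unadjusted p below 0.05 in either direction. The 60 min and 30 min comparisons share the 0 min arrays. The spots that rose at 60 min had a median log2 change of 0.63 at 30 min, and 11 of them were called there. The spots that fell at 60 min had a median of -0.52 at 30 min, and 0 were called.

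At later times the same spots stayed on their side of 0 min. The 75 rises had median log2 changes of 1.26, 1.51 and 1.39 at 120, 180 and 240 min, and 66, 74 and 67 of them were called up, where 3.92%, 7.40% and 6.74% of all spots were. The 21 falls had medians of -0.91, -1.06 and -0.98, with 18, 18 and 17 called down, against 2.23%, 6.17% and 6.03% of all spots. These values use the same 0 min arrays that made the choice. A contrast free of both the 60 and the 0 min arrays is the change from 30 to 120 min. Over that interval the 75 rises had a median log2 change of 0.55, with 71 above 0 and 14 called up, against a median of -0.02 and 0.382% called up among all spots. The 21 falls had a median of -0.38, with 19 below 0 and 0 called down, where 0.0201% of all spots were called down. Of all 4971 spots with this contrast, 2354 (47.4%) lay above 0 and 2617 below. In the fit these contrasts share the estimate of the spread and the replicate block with the comparison that chose the spots.

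**Figure D4:**
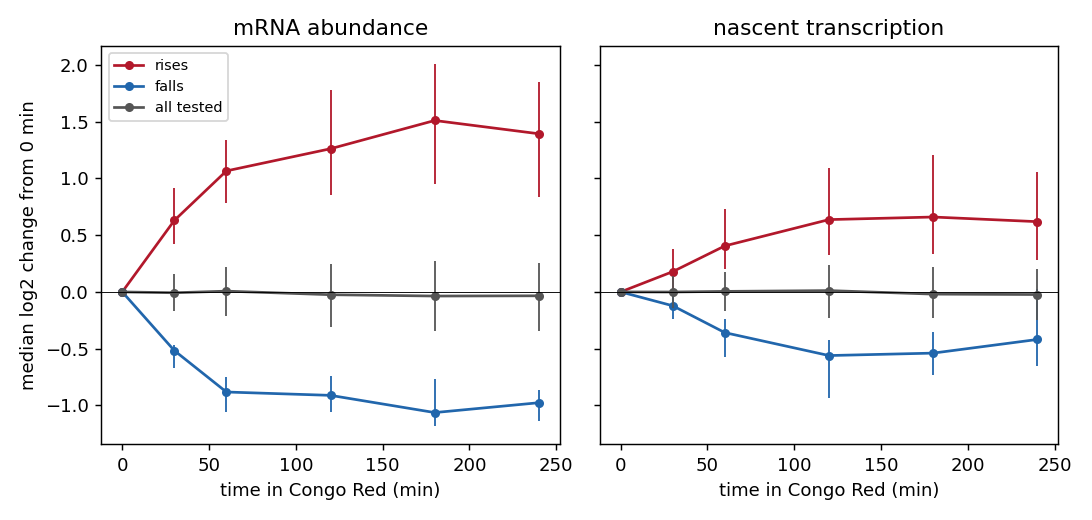
Median log2 change from 0 min (vertical axis) against time in Congo Red in minutes (horizontal axis), for mRNA abundance (left) and nascent transcription (right), of the spots whose mRNA rose (red) or fell (blue) at 60 min and of all spots tested (grey). Vertical lines run from the lower to the upper quartile over spots. In mRNA the rises went on to 1.51 at 180 min, and in nascent transcription to 0.66.

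Nascent transcription at 60 min was measured on arrays that played no part in the choice of these spots. Of 5148 spots tested, 2 rose (0.0389%) and 0 fell in the nascent assay (limma without a block, adjusted p under 0.05), and 222 had an unadjusted p below 0.05, where 257 would by chance. Leaving out the nascent array of replicate 2 at either time left 1 call. With the replicate block, as in the mRNA fit, 6 rose (0.117%) and 0 fell (limma, adjusted p under 0.05). That fit had 364 spots at an unadjusted p below 0.05, where 257 would by chance. Both spots called in the nascent assay without the block were among the 75 mRNA rises, with nascent log2 changes of 1.17 and 1.86 (limma adjusted p = 0.0404 and 5.03e-06) and mRNA changes of 1.34 and 1.95.

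The mRNA rises as a group leaned the same way in nascent transcription. Of the 74 that had a nascent value, 68 lay above 0, with a median log2 change of 0.41, against 0.005 over all 4879 spots measured in both assays. Of those 4879 spots, 2478 (50.8%) lay above 0 and 2401 below. Of the 21 falls, 18 lay below 0, with a median of -0.36. The replicates differed in this. The rises had nascent medians of 0.65, 0.60 and 0.18 in replicates 1, 2 and 3, with 64, 68 and 46 of 74 above 0. The falls had medians of -0.49 and -0.79 in replicates 1 and 2, and of 0.09 in replicate 3, where 12 of 21 lay above 0. Over all spots tested, 55.0%, 49.4% and 49.2% had a nascent change above 0 in replicates 1, 2 and 3. In replicate 3 the falls thus lay near the share of all spots. What sets replicate 3 apart was not tested.

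**Figure D5:**
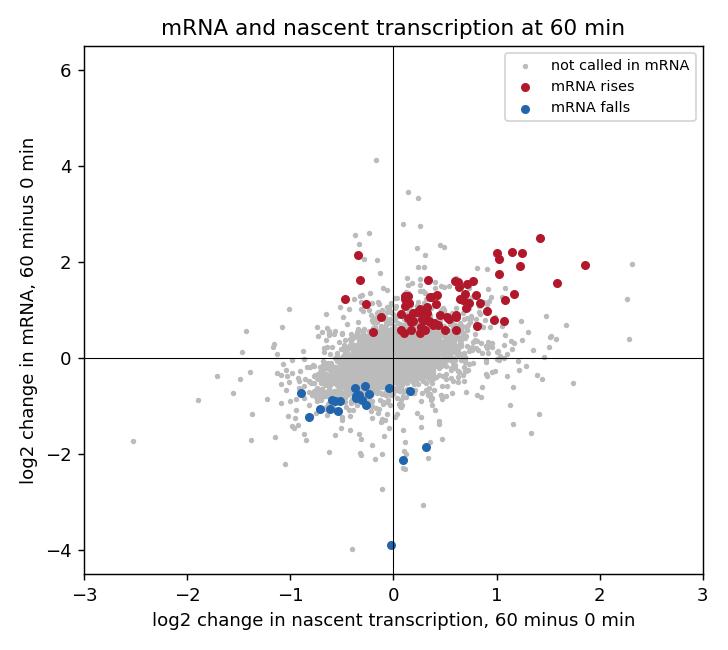
Log2 change in mRNA (vertical axis) against log2 change in nascent transcription (horizontal axis), both 60 minus 0 min, for the 4879 spots measured in both assays, less 1 beyond the plotted range. Spots whose mRNA rose are red and those whose mRNA fell are blue. Of the red points 68 of 74 lie right of 0, and of the blue points 18 of 21 lie left of 0. Of all 4879 spots, 2478 had a nascent change above 0 and 2401 below.

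Across the 4879 spots the mRNA and nascent changes correlated at Pearson's r = 0.39 and Spearman's rho = 0.40, with r of 0.17, 0.52 and 0.14 within replicates 1, 2 and 3. These values describe spots that share their arrays and carry no p. The mRNA change exceeded the nascent change at the rises by a median of 0.60 and at the falls the difference had a median of -0.43. The spots had been chosen on their mRNA, and the test of the difference passed 0 of 4879 spots (limma, adjusted p under 0.05), with 148 at an unadjusted p below 0.05, where 244 would by chance. No spot could be shown to change in mRNA abundance by another amount than in transcription.

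The authors' deposited table holds 1 mRNA abundance per spot and time, with the replicates combined and in a unit the sources used here do not give. For 4565 spots with a value at both times, the mean abundance in the authors' deposited table was 5.19 at 60 min and 5.28 at 0 min, a ratio of 0.982. The median over spots of the ratio of 60 to 0 min was 1.03, and 54.3% of the spots were higher at 60 min in the authors' deposited table. The mean and the median of the table thus lay on opposite sides of 1. The 5th and 95th percentiles of that ratio were 0.642 and 1.71. The 46 most abundant spots held 27.3% of the table's summed abundance at 60 min and 26.2% at 0 min. No replicates stand behind these values here, so they were not tested.

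The table and the arrays describe the same samples and are not independent of each other. Across 4565 spots the log2 ratio of the authors' deposited table correlated with the fitted change at r = 0.80 and rho = 0.81. All 71 rises with a value in the authors' deposited table were above 1, with a median ratio of 2.13, and all 18 falls with a value were below 1, with a median of 0.563. The median abundance of the rises in that table was 2.52 at 60 min and 1.12 at 0 min, and that of the falls 1.19 at 60 min and 2.09 at 0 min. All spots tested had medians of 1.52 at 60 min and 1.46 at 0 min there. For the synthesis rate in the authors' deposited table the median ratio was 1.36 over 74 rises and 0.709 over 20 falls, against 0.943 over all spots tested.

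Many of the spots past 2-fold in the table were not called on the arrays. By the ratio in the authors' deposited table, 125 spots (2.74%) were at least 2-fold higher at 60 min than at 0 min and 71 (1.56%) at least 2-fold lower. Of the 125, 44 were among the 75 rises and 74 had the same direction in all 3 pairs. Of the 71, 5 were among the 21 falls and 46 had the same direction in all 3 pairs. Over all 4976 spots tested, 1.51% were called as rises and 0.422% as falls. Among the 4728 spots with a value on every array compared, 19.7% were higher in all 3 pairs and 17.1% were lower. The table combines the replicates of the same samples, so choosing spots by its ratio favours a shared direction. The counts for the 125 and the 71 therefore describe these spots and do not test them. The 125 and the 71 spots, called ones included, were dim, at median percentiles of 23.9 and 26.6 of signal.

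Spots at some of the 16 printing positions of a block differed from the rest in their typical change. The last number of a spot's identifier was read here as its printing position. At position 3 the 331 spots tested had a median log2 change of -0.39, with -0.21, -0.48 and -0.45 in pairs 1, 2 and 3, and 0 were called. The medians of the other positions lay between -0.13 and 0.12. At position 13 the pairs disagreed, with medians of -0.27, 0.21 and 0.19, and 0 of 357 spots were called. The 3 positions with the highest share of rises, picked for it after their values were seen, were 5, 10 and 16, which held 34 of the 75 rises (45.3%) and 18.7% of the spots tested. That choice fixes the excess, so nothing is read from it. With every position centred on its median, 81 spots rose and 40 fell, and 32 of those 81 rises were at the same 3 positions. The part of the printing position in the rises was not tested.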

How the data were processed

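The labels' protocols describe 33P-labelled cDNA for mRNA abundance and genomic run-on for nascent transcription. The array files carry a single intensity for each spot, as deposited, with no background column. Scanner, background treatment and scaling were not given in the sources used. The table of the whole series, as the authors deposited it, holds 1 signal per spot, time and measure with replicates combined.

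Values of 0 were treated as missing, and log2 was taken of the rest without a pseudocount. Spots with at least 2 of 3 values above 0 at both 60 and 0 min were kept, and all 18 mRNA arrays were quantile normalised and fitted together. The model (limma 3.58.1, R 4.3.3) had time as a factor and the replicate number as a block, and p-values were Benjamini-Hochberg adjusted over all spots tested (threshold 0.05). Where a spot lacked a value, the fit used the arrays that held one. The nascent arrays were fitted in the same way without the block. The 2 assays were set against each other in a joint fit of the 36 arrays (interaction term, weights estimated by assay). The blocked fit of the mRNA arrays was also run on simulated data with known changes at 60 min. The nascent and joint fits were not run on simulated data. Tables and plots used Python 3.11.15, pandas 2.3.3, scipy 1.17.1 and matplotlib 3.10.9.

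Replicate numbers come from the file names. Deviations from the group means correlated between 0.661 and 0.713 for the 3 same-numbered pairs of 60 and 0 min arrays, and between 0.602 and 0.835 for all 45 pairs over the course, so the numbers paired the arrays. No pair among 630 pairs of arrays was identical (0 found). The named spots are the 2 largest rises and the 2 largest falls among called spots with 6 values above 0, the same direction in all 3 pairs and at least the median signal. The comparison and these rules were chosen with earlier results of these data known. Alternatives covered the block, the normalisation, the filter, a pseudocount and leaving out arrays.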

Additional observations from a re-analysis of the deposited data

How the results depend on the processing

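The 96 mRNA calls at 60 min lay between 86 and 142 in 11 other settings (random block, common median, cyclic loess, centred printing positions, pseudocount of 1.84, 4 filters, a mean-variance trend, and, chosen after seeing the data, printing position 3 left out), and 63 to 75 of the 75 rises and 17 to 21 of the 21 falls were called again in the same direction. Rises made up 78.1% of the calls, and 66.9% with positions centred. The 11 settings were grouped because their counts lay within 1.5 times of 96, which limits their range in advance. The count was 5 without the replicate block and 0 with the 6 arrays fitted alone, a fit on fewer arrays. Leaving out arrays gave 1 to 110 calls, with 17 to 110 when 1 array was left out and 4, 1 and 12 without replicates 1, 2 and 3 at all times, which leaves 2 arrays a time. The change of each of the 4 named spots kept its sign in all 22 alternatives. The naming rule had asked for the same direction in all 3 pairs, so a kept sign does not test these spots. The 0 calls between 30 and 60 min were 0 to 1 with arrays left out, and 0 without the replicate block or with a common median. The 2 nascent calls were 6 with the replicate block and 1 to 2 with arrays left out. The 0 calls for the difference between assays were also 0 without the block (34 spots under an unadjusted p of 0.05) and with it on both assays (211). The median ratio in the authors' deposited table was 1.03 with both sets of spots. The causes of these shifts were not tested. With no background value in the files, the changes of dim spots are rough.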

Other observations

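Spots listed at 0 on more than 1 array of a group fell outside the comparison. Of the 6144 spots 658 were at 0 on all 6 arrays, and 1168 in all did not enter the test. Only 1 spot was above 0 on all 3 arrays at 60 min and listed at 0 on all 3 at 0 min, with intensities of 1.93, 2.25 and 1.70. The reverse pattern was also found at 1 spot, which had intensities of 0.107, 0.838 and 1.47 at 0 min. Both spots' values lie far below the median of the spots above 0, which ran from 32.5 to 91.3 at 60 min and from 26.9 to 64.8 at 0 min. Another 22 spots were above 0 on 2 arrays at 60 min and on 0 arrays at 0 min, and 17 showed the reverse. Their intensities were not examined.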
